A study of Mus musculus with 6 samples.

Results

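The genes described here are 8 members of the vascular endothelial growth factor (VEGF) system: the ligands Vegfa, Vegfb, Vegfc and Pgf, the receptor tyrosine kinases Flt1 and Kdr, and the neuropilin co-receptors Nrp1 and Nrp2. They were chosen by gene symbol, and all 8 were among the 18193 genes that the arrays measured. Their messenger RNA was read by 20 probe sets, each a group of short probes for 1 transcript region, and the probe set with the highest mean over all arrays stood for its gene. The cells were SVI podocytes, a conditionally immortalized line from mouse kidney glomeruli, differentiated at 38 °C in medium with 10% serum. In the stretched group the culture surface was strained rhythmically in both directions for 3 days at 0.5 Hz, reaching a linear strain of 5% at most, and the unstretched group was the resting control. Each group had 3 arrays, named here as replicates 1 to 3. Nothing in the labels says what the replicates were beyond a statement that 3 independent batches were used, so p-values cover only how these arrays spread, and part of that may be technical. A single cell line grown without endothelium stands for podocytes here.

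VEGF ligands are secreted dimers that bind receptor tyrosine kinases, chiefly on endothelial cells. VEGF-A binds both FLT1 and KDR, of which KDR carries most of the growth and survival signal, whereas VEGF-B and placental growth factor bind FLT1 and not KDR. VEGF-C acts mainly on FLT4, the receptor of lymphatic endothelium. Neuropilins have no known enzymatic activity of their own and present ligands to the receptors. They also serve class 3 semaphorins together with plexins. In the glomerulus, podocytes are the main source of VEGF-A, and the endothelium across the filtration barrier depends on it.

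All values are log2 expression values from RMA, a method that corrects background and brings the overall distributions of the arrays close to each other. A rise or fall of all RNA together therefore cannot be seen. Array medians lay between 4.92 and 4.98. Some difference in distribution remained in the deposited values: quantile normalization again moved the share of rises among all calls from 54.2% to 42.7%. Podocyte identity was partial at the level of markers. Of 13 podocyte genes measured, 5 lay above the mean value of the median gene (5.74), among them Synpo, Cd2ap and Podxl. Nephrin (Nphs1), a defining protein of the slit diaphragm, read between 4.73 and 5.18 on every array. Of the 13 genes 2 fell, and 1 of these was Synpo (log2 change -0.45, limma adjusted p = 0.00412). Of 17 endothelial markers, 3 lay above the median gene and 0 passed the test in either direction (limma; 4 at an unadjusted p under 0.05). The 3 above the median gene were Ehd3, Eng and Egfl7, with Ehd3 highest (mean over all arrays 7.71). Pecam1 and Cdh5, defining genes of endothelium, read at most 3.99 and 3.91. The mean over the endothelial list ranged from 4.67 to 4.76 in unstretched and from 4.56 to 4.71 in stretched cells. Beside 7.98% of all genes that rose and 6.76% that fell, among 8 leukocyte markers 1 rose and 2 fell, among 7 mesangial and pericyte markers 1 rose, and among 10 tubule and parietal epithelial markers 3 rose. The mean over the tubule and parietal list was 5.87 on every unstretched array and 6.06 to 6.10 on stretched arrays. Of its 10 genes 4 lay above the median gene, with Cdh16 and Lrp2 highest (means over all arrays 10.71 and 10.10). Of the 8 leukocyte markers 2 did, Cd14 and Csf1r (9.51 and 8.63). Beta-actin control probe sets at the 3' end minus those at the 5' end, a sign of RNA quality, differed by 1.57 ± 0.03 in unstretched and 1.30 ± 0.05 in stretched cells (SD, n = 3 each; two-sided exact permutation p = 0.1, which is the lowest that 3 against 3 arrays permit). The part of these differences in the results was not tested.

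With stretch, 2 ligand genes fell, 1 neuropilin gene rose, and the other 5 members did not pass the test. Vegfb fell 1.74-fold, Vegfa fell 1.39-fold, and Nrp1 rose 1.38-fold, each by the probe set that stands for the gene. These 3 of 8 members compare with 14.7% of all genes past the same threshold, of which 7.98% of genes rose and 6.76% fell (limma, Benjamini-Hochberg adjusted p under 0.05 over all 18193 genes). The median log2 change of the members was -0.09, beside -0.02 over all genes. In 4 members the groups did not overlap, which was so in 32.6% of all genes. In bulk RNA, fewer cells that express a gene and less of its RNA per cell cannot be told apart.

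**Figure D1:**
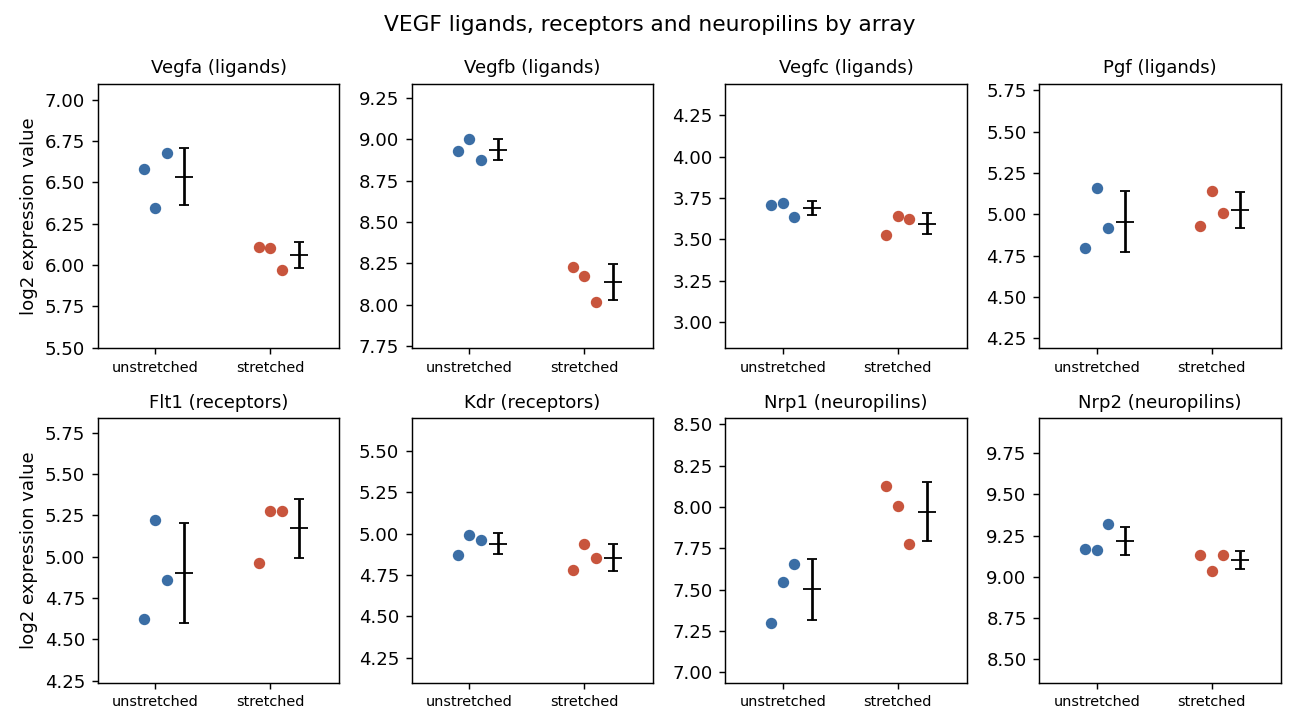
Log2 expression value of each member on each array, by the probe set that stands for the gene; dots are arrays, blue for unstretched and red for stretched, bars are the mean ± SD (n = 3), and every panel spans 1.6 log2 units around its own centre. The groups are apart for Vegfa, Vegfb and Nrp1, narrowly apart for Nrp2 and overlapping in the other 4 panels.

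Among the probe sets that stand for their genes, that of Vegfb had the largest change. It encodes VEGF-B, a ligand of FLT1 that is linked to fatty acid transport and survival rather than to vessel growth. Its single probe set read 8.93, 9.003 and 8.88 on the unstretched arrays and 8.23, 8.17 and 8.02 on the stretched ones, so the groups were far apart and varied little within themselves. Its log2 value fell by 0.80 (SE 0.09; 95% interval -0.997 to -0.60, limma adjusted p = 2.82e-04). The change passed whichever array was left out, with values from -0.84 to -0.74.

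Vegfa encodes the ligand that podocytes supply to the glomerular endothelium. The probe set that stands for it read 6.58, 6.34 and 6.68 in unstretched and 6.11, 6.10 and 5.97 in stretched cells. Every stretched array lay below every unstretched one, and unstretched replicate 2 came closest to the stretched values. Its log2 value fell by 0.47 (SE 0.10; 95% interval -0.70 to -0.25, limma adjusted p = 0.0107). A dimmer probe set, 1451959_a_at, whose suffix marks probes common to several transcripts of a gene, read 5.88 to 6.18 in unstretched and 5.70 to 5.80 in stretched cells. Its groups did not overlap either, but its log2 change of -0.28 (SE 0.10) did not pass over all 45037 probe sets (adjusted p = 0.104 by limma). The changes of the 2 probe sets differed by 0.19 on the log2 scale (two-sided exact permutation p = 0.2). With 3 arrays against 3 this test cannot give a p below 0.1, so it cannot decide whether they changed alike. In the fit over all probe sets the first probe set no longer passed when unstretched replicate 1 was left out (adjusted p = 0.0535), nor when stretched replicate 3 was (0.0633).

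The remaining ligands read below the median gene and showed little difference. Vegfc, the lymphangiogenic ligand, read 3.71, 3.72 and 3.64 in unstretched and 3.52, 3.64 and 3.62 in stretched cells, with overlap (log2 change -0.09, SE 0.08, 95% interval -0.27 to 0.09, limma adjusted p = 0.520). Its other 2 probe sets were dimmer still, with changes of -0.03 and 0.08. Pgf, placental growth factor, read 4.79, 5.16 and 4.92 against 4.93, 5.14 and 5.01. These ranges lay almost on top of each other (log2 change 0.07, SE 0.11, 95% interval -0.17 to 0.31, limma adjusted p = 0.738). Detection calls were not used here, so whether such low values stand above background is unknown.

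Both receptor genes read below the median gene, and neither passed by the probe set that stands for it. Kdr, the main signalling receptor of VEGF-A, read 4.87, 4.99 and 4.96 in unstretched and 4.78, 4.94 and 4.85 in stretched cells, with overlap (log2 change -0.08, SE 0.09, 95% interval -0.27 to 0.10, limma adjusted p = 0.582). Flt1, which binds VEGF-A tightly and is also made as a soluble trap for the ligand, read 4.63, 5.23 and 4.86 against 4.97, 5.27 and 5.28. Its unstretched arrays spread widely (log2 change 0.27, SE 0.15, 95% interval -0.05 to 0.59, limma adjusted p = 0.267).

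Flt1 was read by 4 probe sets, of which 1 passed the test. That one, 1419300_at, read 4.45, 4.16 and 4.53 in unstretched and 4.99, 4.75 and 4.83 in stretched cells. Its groups did not overlap, and it rose by 0.48 (SE 0.11; adjusted p = 0.0239 in the limma fit of all probe sets). The others, 1454037_a_at and 1440926_at, had changes of 0.00 (SE 0.14) and -0.01 (SE 0.10). Against the probe set that stands for Flt1, these changes were smaller by 0.27 and 0.28 on the log2 scale, each with a two-sided exact permutation p of 0.1, the smallest possible here, and an adjusted p of 0.300 over the 12 such comparisons. The call of 1419300_at was lost without unstretched replicate 2 (limma adjusted p = 0.0721), stretched replicate 1 (0.1015) or stretched replicate 3 (0.0599). Which Flt1 transcripts each probe set reads is not given in the sources used here, so membrane-bound and soluble forms were not separated.

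Nrp1 rose, Nrp2 did not pass the test, and both had probe sets well above the median gene. Nrp1 presents VEGF-A to KDR and binds Sema3a. The probe set that stands for it, 1418084_at, read 7.30, 7.55 and 7.66 in unstretched and 8.13, 8.01 and 7.78 in stretched cells. The groups were apart, with unstretched replicate 3 and stretched replicate 3 nearest to each other. It rose by 0.47 on the log2 scale (SE 0.12; 95% interval 0.21 to 0.73, limma adjusted p = 0.0236). That call did not hold without unstretched replicate 1 (limma adjusted p = 0.0767) or 2 (0.0519), without stretched replicate 1 (0.1005) or 2 (0.0759), or with the arrays quantile normalized again (0.0505).

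Of the other Nrp1 probe sets, 2 rose as well. Their rises were larger than that of 1418084_at by 0.21 and 0.43 on the log2 scale (two-sided exact permutation p = 0.4 and 0.3). With so few arrays this test cannot give a p below 0.1, so it cannot decide whether the amounts differed. The probe set 1448944_at read 6.23, 6.13 and 6.11 against 7.03, 6.61 and 6.87, and rose by 0.68 (SE 0.11; adjusted p = 0.00413 in the limma fit of all probe sets). For 1448943_at the values were 6.70, 5.93 and 6.61 against 7.40, 7.27 and 7.27, a rise of 0.90 (SE 0.17, adjusted p = 0.00926) in which unstretched replicate 2 lay far below its group. Leaving out any single array kept both calls, with adjusted p up to 0.0201 and 0.0416, and without unstretched replicate 2 the rise of 1448943_at was 0.66. The dim probe set 1457198_at had a change of 0.06 (SE 0.17, adjusted p = 0.863).

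Nrp2 encodes the neuropilin that serves VEGF-C and Sema3f. The probe set that stands for it read 9.17, 9.16 and 9.32 in unstretched and 9.13, 9.04 and 9.13 in stretched cells, groups that came within 0.03 of each other without overlap (log2 change -0.12, SE 0.09, 95% interval -0.31 to 0.07, limma adjusted p = 0.429). Its other probe sets had changes of the same sign. They were -0.26 (SE 0.09, adjusted p = 0.0916) for 1426528_at, -0.33 (SE 0.10, adjusted p = 0.0600) for 1456778_at and -0.23 (SE 0.11, adjusted p = 0.232) for the dim 1447343_at. The groups did not overlap in 3 of the 4 Nrp2 probe sets, and 0 of the 4 passed. Over all probe sets of the family, 4 of 20 rose and 2 fell, beside 11.0% of the 45037 probe sets called in either direction, 6.47% in the upward and 4.51% in the downward direction. Groups did not overlap in 10 of the 20, beside 29.5% of all probe sets. Probe sets of 1 gene share its RNA and are not replicates.

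**Figure D2:**
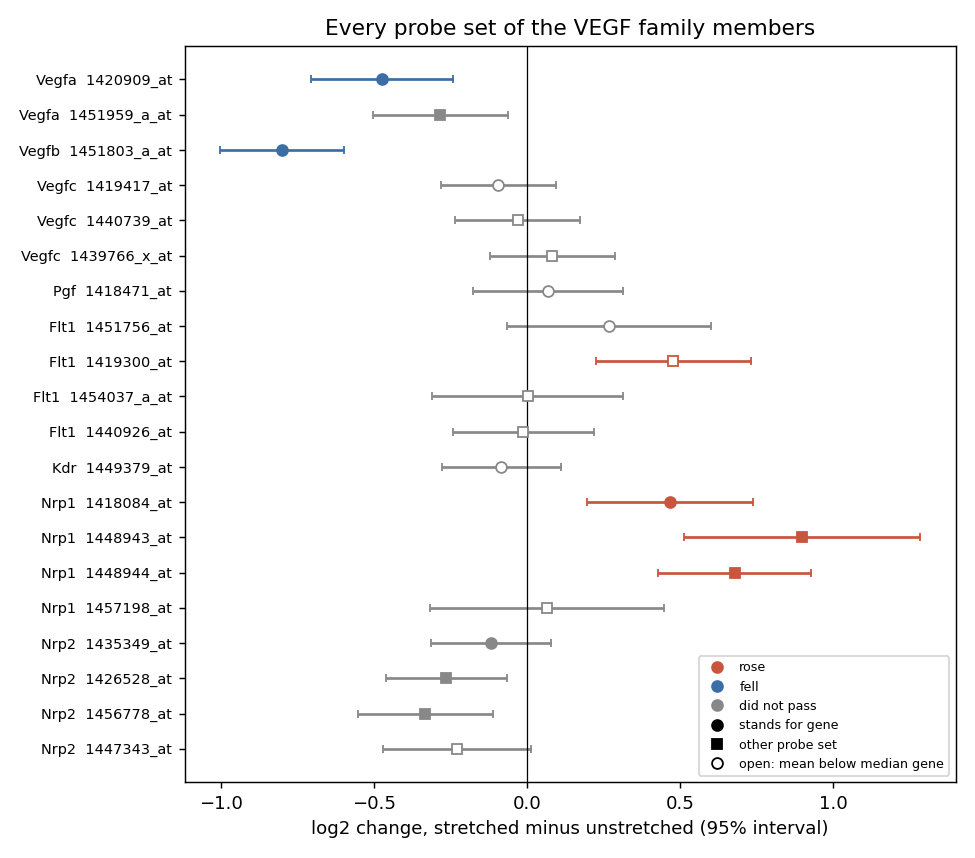
Log2 change, stretched minus unstretched, with its 95% interval for each of the 20 probe sets; circles stand for their gene, squares are other probe sets, open symbols lie below the median gene, and colour gives the call. The Nrp1 points at 0.47, 0.68 and 0.90 lie right of 0 and all Nrp2 points lie left of it.

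Members of one role were compared in 8 pairs by their difference on each array, and in 6 pairs these differences did not overlap between the groups. Each of the 6 holds Vegfa, Vegfb or Nrp1, the members that passed, so they share genes and are not separate results. Groups did not overlap in 32.6% of all single genes, and the share among pairs of other genes was not computed. For Nrp1 minus Nrp2 the difference was higher by 0.58 on the log2 scale in stretched cells, and the Vegfb minus Pgf and Vegfb minus Vegfc differences shifted by -0.87 and -0.71. For Vegfa minus Pgf the shift was -0.54, for Vegfa minus Vegfc -0.38 and for Vegfa minus Vegfb 0.33, since Vegfb had the larger fall. Each of these 6 had a two-sided exact permutation p of 0.1, the smallest that 3 arrays against 3 can give, and an adjusted p of 0.133 over the 8 pairs, so none passed. For Flt1 minus Kdr the change was 0.35 (exact permutation p = 0.2) and for Vegfc minus Pgf it was -0.16 (exact permutation p = 0.3). Only changes are compared in this way, since the levels of different probe sets are not on 1 scale.

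**Figure D3:**
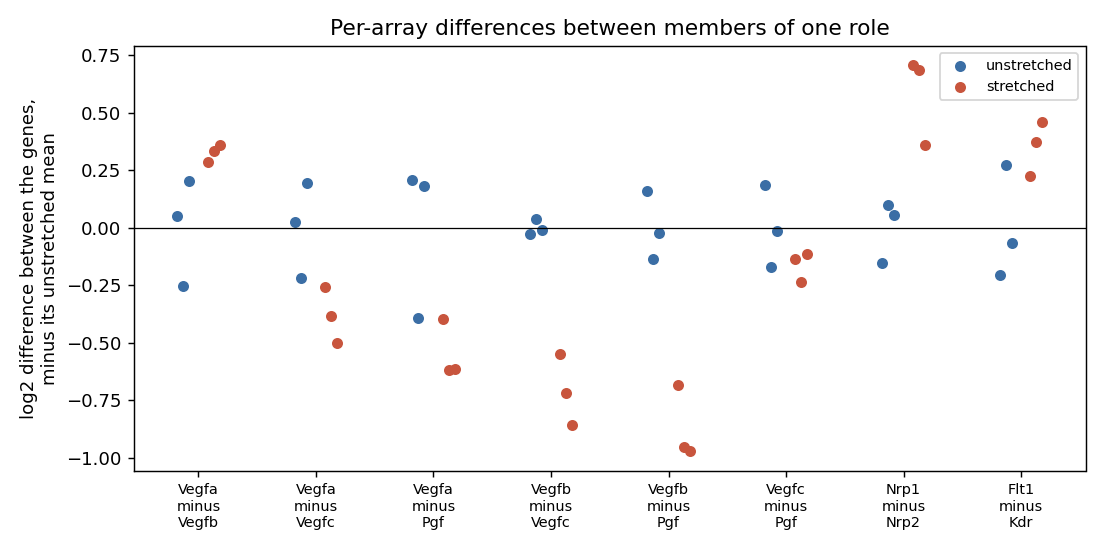
Per-array log2 difference between 2 members of one role, minus the mean of that difference over the unstretched arrays; blue dots are unstretched and red dots stretched arrays (n = 3 each). The stretched dots lie above all unstretched dots for Nrp1 minus Nrp2 and Vegfa minus Vegfb, and below them for the other pairs that hold Vegfa or Vegfb.

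The stretches of DNA before the start sites of the 2 ligands that fell, of Nrp1 and of Nrp2 are shown because they belong to the genes that passed and to the co-receptor set beside Nrp1. Each is the 250 bases upstream of the annotated start, 5' to 3' on the gene's strand, from RefSeq on mouse build GRCm38.p6, in which all 8 members had an entry. Capitals mark matches on either strand to the GC box GGGCGG, bound by Sp-family factors, the AP-1 site TGANTCA and the TEAD site GGAATG. They also mark ACGTG, a form of the core of hypoxia response elements that is called the hypoxia core here. The form GCGTG was not searched for and stays unmarked where it occurs.
Vegfa (chr17:46032378-46032627, minus strand): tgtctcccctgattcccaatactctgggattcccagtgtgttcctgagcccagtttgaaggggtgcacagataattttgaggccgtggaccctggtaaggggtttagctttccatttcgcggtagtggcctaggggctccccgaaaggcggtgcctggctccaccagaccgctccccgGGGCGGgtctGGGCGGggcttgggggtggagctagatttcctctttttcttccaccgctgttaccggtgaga
Vegfb (chr19:6987652-6987901, minus strand): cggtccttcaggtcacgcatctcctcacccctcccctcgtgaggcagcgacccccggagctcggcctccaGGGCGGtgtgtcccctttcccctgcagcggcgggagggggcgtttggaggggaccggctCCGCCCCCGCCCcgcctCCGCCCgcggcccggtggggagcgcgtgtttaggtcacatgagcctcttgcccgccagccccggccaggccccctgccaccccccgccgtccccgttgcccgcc
Nrp1 (chr8:128358823-128359072, plus strand): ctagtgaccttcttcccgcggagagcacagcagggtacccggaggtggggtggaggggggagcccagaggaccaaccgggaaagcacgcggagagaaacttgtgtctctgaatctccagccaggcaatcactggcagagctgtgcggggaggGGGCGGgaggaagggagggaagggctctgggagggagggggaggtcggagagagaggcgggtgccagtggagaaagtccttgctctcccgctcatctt
Nrp2 (chr1:62703067-62703316, plus strand): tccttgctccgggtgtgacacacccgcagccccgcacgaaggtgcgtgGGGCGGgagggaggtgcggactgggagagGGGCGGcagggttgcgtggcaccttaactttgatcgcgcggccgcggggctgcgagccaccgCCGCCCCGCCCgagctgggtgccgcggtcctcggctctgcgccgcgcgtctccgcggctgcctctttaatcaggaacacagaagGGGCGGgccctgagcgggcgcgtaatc

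All capitals in these 4 windows are GC boxes. There were 2 in Vegfa, 4 in Vegfb, 1 in Nrp1 and 5 in Nrp2, matches that touch or share a base appearing as 1 run of capitals, and no 2 different motifs overlapped. Among 32851 windows of this length in the same table, 32.7% held a GC box, 16.6% the hypoxia core, 6.75% the AP-1 site and 12.6% the TEAD site. For Vegfa the table lists another start site, whose window (not shown) held 1 hypoxia core and 1 GC box. A match is a string of letters and not a measured binding site.

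Genes that act around the VEGF system were grouped into lists, and they changed in both directions. The largest changes were among regulators of Vegfa transcription and RNA handling, of which 5 of 24 rose and 2 fell (median log2 change 0.01), beside 7.98% and 6.76% of all genes. The balance depended on the scaling, with 4 rises and 5 falls after quantile normalization again and 4 of each with cyclic loess. Ppargc1a, a coactivator that can raise Vegfa independently of hypoxia-inducible factors, fell by 1.80 (SE 0.20, limma adjusted p = 2.47e-04), and all 5 of its probe sets fell. Epas1, which encodes the hypoxia-inducible factor HIF-2 alpha, read 8.68, 8.33 and 8.73 in unstretched and 6.93, 6.96 and 7.44 in stretched cells. It fell by 1.47 (SE 0.15, limma adjusted p = 1.60e-04), while a dim second probe set had a change of -0.16. Ets1, an endothelial and stromal transcription factor, rose by 0.58 (SE 0.10, limma adjusted p = 0.00329); of its other 3 probe sets 1 rose, by 1.03, and 2 had changes of 0.06 and 0.19 that did not pass. Named after their values were seen, Hif1a, which encodes HIF-1 alpha, rose by 0.39 (SE 0.09, adjusted p = 0.0121) and their shared partner Arnt rose by 0.30 (SE 0.09, adjusted p = 0.0465). With the probe sets of each gene averaged, 2 genes of the list rose and 2 fell.

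Other genes induced by hypoxia, like Vegfa, had no common direction: 1 of 13 rose and 2 fell (median -0.03), beside the same shares of all genes. The pyruvate dehydrogenase kinase gene Pdk1 fell by 0.80 (SE 0.09, limma adjusted p = 2.63e-04) and Ndrg1 fell by 0.69 (SE 0.09, adjusted p = 5.72e-04), whereas the glucose transporter gene Slc2a1 rose by 0.42 (SE 0.10, adjusted p = 0.0184). The Pdk1 call was lost with averaged probe sets (adjusted p = 0.0520). That of Slc2a1 was lost without unstretched replicate 1 (0.0573), stretched replicate 1 (0.0845) or stretched replicate 3 (0.0757). Without unstretched replicate 3, 5 genes of the list were called, 3 of them higher.

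Of 24 genes that free, cut or retain VEGF ligands, 7 rose and 2 fell (median 0.09), beside 7.98% and 6.76% of all genes. Furin, a protease with a part in the maturation of VEGF-C, rose by 0.95 (SE 0.11, limma adjusted p = 3.03e-04). Adamts1, a matrix protease that also binds VEGF-A, rose by 0.70 (SE 0.10, adjusted p = 0.00111). The heparan sulfate 6-O-endosulfatase gene Sulf1 rose by 0.73 (SE 0.10, adjusted p = 0.00101) by a probe set below the median gene. Of its other probe sets 1 rose by 0.48 and 1 had a change of -0.16 that did not pass, and with the 3 averaged Sulf1 rose by 0.35 (adjusted p = 0.0219). The related gene Sulf2, named after its value was seen, fell by 0.57 (SE 0.08, adjusted p = 0.00122).

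Downstream of the receptors, 6 of 28 signalling genes rose and 2 fell (median 0.04), beside 7.98% and 6.76% of all genes. Hspb1, a small heat shock protein that is phosphorylated downstream of KDR, rose by 1.30 (SE 0.11, limma adjusted p = 5.09e-05). Map2k1, the kinase MEK1, rose by 0.40 (SE 0.08, adjusted p = 0.00806), and Pik3r1, the regulatory subunit of phosphoinositide 3-kinase, fell by 0.42 (SE 0.08, adjusted p = 0.00605). The Pik3r1 call was lost with averaged probe sets (adjusted p = 0.195). Without stretched replicate 1 the list had 2 rises and 1 fall.

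The co-receptor partners and the neighbouring angiopoietin system are read beside the 14.7% of all genes that passed in either direction. Of 12 class 3 semaphorins and plexins, 1 rose (median 0.04): Plxnd1, a receptor of Sema3e, had a log2 change of 0.36 (SE 0.10, limma adjusted p = 0.0379). That call was lost without any array other than unstretched replicate 3 (adjusted p = 0.0590 to 0.145), with quantile normalization again (0.0680), with cyclic loess (0.0630) and with every probe set tested (0.0539). The list had 2 rises without unstretched replicate 3, and 2 rises and 1 fall with averaged probe sets. Of 6 angiopoietin and Tie genes 0 passed (limma; 0 at an unadjusted p under 0.05), and the Tie receptor gene Tie1 had a change of -0.13 (SE 0.10). The lymphatic pair outside the 8 members, Vegfd and Flt4, had changes of -0.09 (SE 0.08) and -0.14 (SE 0.09), and neither passed (limma; 0 at an unadjusted p under 0.05).

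**Figure D4:**
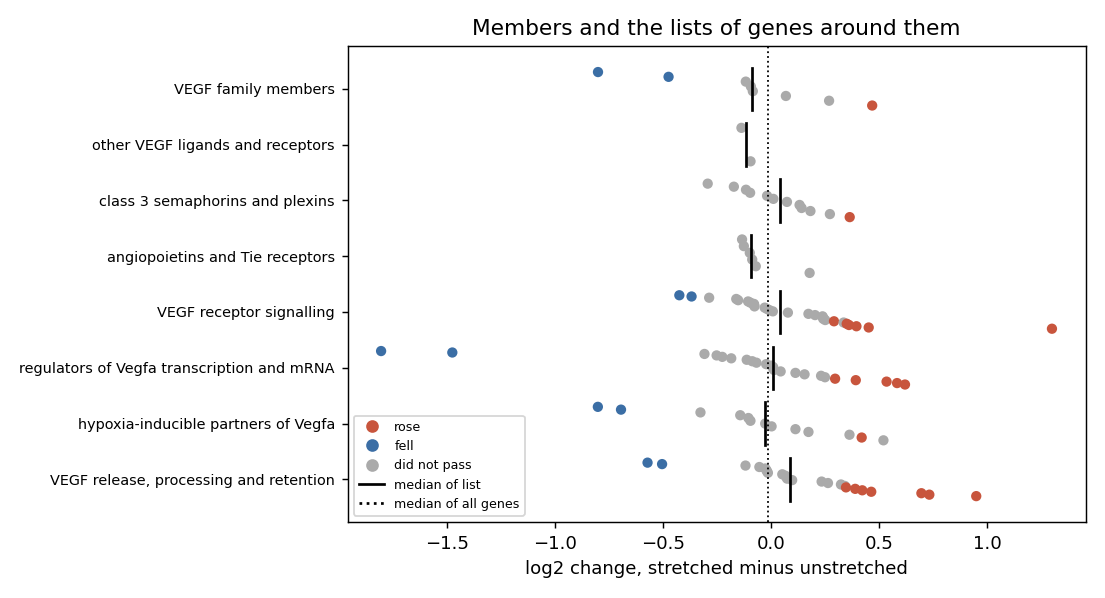
Log2 change, stretched minus unstretched, of the 8 members and of each gene in the lists around them; a dot is a gene, red rose, blue fell and grey did not pass, black bars are list medians and the dotted line is the median of all genes (-0.02). List medians lie between -0.12 and 0.09, while single genes reach -1.80 and 1.30.

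The genes whose profile over the 6 arrays, centred on its own mean, was most like that of each called member were found by the root mean square difference. For Vegfa these were Sirpa, Tmod1 and Mroh1, at 0.04 to 0.06 log2 units. Ptgds, Isoc1 and Dip2c were nearest to Vegfb, at 0.03 to 0.05. For Nrp1 they were Prxl2a, Ror1 and Ints5, at 0.03 to 0.07. The log2 changes of the 9 genes ran from -0.81 to 0.46.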

How the data were processed

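RNA of 3 stretched and 3 unstretched samples of SVI podocytes was measured on Affymetrix-type mouse arrays. The authors deposited 1 log2 value for each probe set on each array, from RMA per the submitters' processing notes (version not given in the sources used here). Of 45101 probe sets, 64 controls were left out, and genes were taken from 34945 probe sets with 1 gene symbol in the platform annotation (932 had several and 9160 were not listed). The contrast of stretched against unstretched arrays was fitted in R 4.3.3 with limma 3.58.1 (lmFit and eBayes) over all 18193 genes, and over all 45037 probe sets for the other probe sets of a member, without covariates, with Benjamini-Hochberg adjustment and a threshold of 0.05. Intervals are 95%. For single values the test was an exact permutation, two-sided. No filter on dim genes was applied. The steps were tested on simulated data. Alternatives were the replicate number as a block, each array left out, a filter on dim genes, other scalings, another prior and other choices of probe set; for lists, pairs and single probe sets they were added after the data were seen. Members, lists and rules were chosen with earlier results of these data known. Of each pathway list the 3 genes with the largest moderated statistic were eligible for naming, of each marker list the 3 with the highest mean, and the 3 nearest profiles for each called member, predicted transcripts left out. Markers named beyond these are defining genes of their cell type.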

Additional observations from a re-analysis of the deposited data

How the results depend on the processing

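The number of arrays limits the precision, and values below the median gene can be background. Over all 15 alternatives Vegfa and Vegfb kept their call and direction, with log2 changes of -0.57 to -0.38 and -0.88 to -0.74. The highest limma adjusted p among them was 0.0490 for Vegfa, close to the threshold, and 0.00201 for Vegfb. In the fit over all probe sets, leaving out single arrays took that of Vegfa up to 0.0633. The number of the 8 members called was 2 or 3, depending on Nrp1, which lost its call in 5 of the 15 alternatives. These were quantile normalization again (log2 change 0.39) and leaving out unstretched replicate 1 or 2 or stretched replicate 1 or 2. Leaving out single arrays gave Nrp1 changes of 0.37 to 0.57. The change of Pgf ranged from -0.0121 to 0.17 without single arrays. Over all genes, 2681 calls became 1661 without stretched replicate 1, 1750 without stretched replicate 3 and at most 2639 without any other array, and 4942 probe sets were called with every probe set tested. Rises made up 54.2% of calls, 42.7% with quantile normalization again, 44.6% with cyclic loess and 61.8% with arrays centred on their medians. Same-numbered arrays had correlations of 0.02, 0.15 and 0.28 between their deviations from the group means, and 4 of 6 arrays correlated best with their own number. No label ties a batch to a replicate number, so the numbers were not taken as pairs in the main fit. Whether same-numbered arrays are pairs is unknown. The replicate block gave 3102 calls as a fixed and 3283 as a random effect, again with 3 members called. The hypoxia list had 6 calls with the fixed and 4 with the random block, against 3 without. Among uncalled values near 0, signs turned for Vegfd with averaged probe sets (0.0324), and without single arrays for Vegfc 1440739_at (-0.0637 to 0.037), Flt1 1454037_a_at (-0.10 to 0.16) and 1440926_at (-0.08 to 0.0611) and Nrp1 1457198_at (-0.10 to 0.23). The causes were not tested.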
